A study of Homo sapiens with 12 samples.

Results

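The mevalonate arm of cholesterol synthesis was followed through 8 genes, ACAT2, HMGCS1, MVK, PMVK, MVD, IDI1, FDPS and FDFT1, which were taken by symbol from a table of 10945 genes. Each of the 8 symbols stood on a single row, and all 8 were tested in every comparison. The genes were measured in HepG2, an established human liver cancer line labelled wild type, in 12 libraries made with a kit that reads the 3′ ends of polyadenylated RNA. The 4 groups of 3 libraries each were cells in Plasmax, a medium formulated after human plasma, in high-glucose DMEM (HGDMEM), in low-glucose DMEM (LGDMEM) and in EMEM. All cells had been maintained and seeded in EMEM, were switched 24 h after seeding and were harvested 96 h after the switch, with fresh medium at 48 h. All media held 10% heat-inactivated fetal bovine serum, and the EMEM group was washed and changed like the others. The labels give no concentration of glucose or other medium component, and the cells are 1 tumour line and not primary hepatocytes.

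In this pathway acetyl-CoA units are joined to HMG-CoA, which is reduced to mevalonate, phosphorylated and decarboxylated to isoprene units, and these are condensed to farnesyl diphosphate and then squalene. Its genes are classical targets of SREBP-2, a transcription factor released from the endoplasmic reticulum membrane when that membrane is poor in sterol. The liver is a major site of the pathway, which also supplies ubiquinone, dolichol and the lipid anchors of prenylated proteins.

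The upstream sequences of the members are shown first, as description only. Whether they bear on the levels given below was not tested. RefSeq windows of 250 bases before the annotated start (build GRCh38.p14, whereas the submitters' processing notes name hg19) were matched by symbol for 6 of the 8 members, HMGCS1, MVK, PMVK, MVD, IDI1 and FDPS. The CCAAT box, a motif bound by NF-Y, was searched as CCAAT on both strands and occurred in a window of 5 of the 6. MVK held 5 matches, MVD and FDPS 3 each and HMGCS1 2 in the first of its 2 windows, while IDI1 held 3 and 2 in 2 of its 3 windows, where 2 of the matches share bases. The PMVK window held 0, and all its 250 bases lie within annotated exons of PMVK itself. The IDI1 window with 3 matches likewise lies wholly within exons of IDI1. Of all 35116 windows of this length 32.0% held at least 1 match. That share is per window, whereas HMGCS1 has 2 windows and IDI1 has 3, so it is not a like measure for 5 of 6 genes. Capitals below mark CCAAT, or ATTGG where the box lies on the other strand. Each stretch is read 5′ to 3′ on the strand of its gene and is limited to the part outside annotated exons of protein-coding genes, or to 30 bases for MVK, whose window lies within exons of its neighbour MMAB. The HMGCS1 stretch is chr5:43313513-43313662 (minus strand), the MVD stretch chr16:88663162-88663341 (minus strand), the FDPS stretch chr1:155308616-155308747 (plus strand) and the MVK stretch chr12:109573697-109573726 (plus strand).
HMGCS1: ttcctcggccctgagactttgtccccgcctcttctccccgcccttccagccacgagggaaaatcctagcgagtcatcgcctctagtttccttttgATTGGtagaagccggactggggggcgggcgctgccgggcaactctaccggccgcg
MVD: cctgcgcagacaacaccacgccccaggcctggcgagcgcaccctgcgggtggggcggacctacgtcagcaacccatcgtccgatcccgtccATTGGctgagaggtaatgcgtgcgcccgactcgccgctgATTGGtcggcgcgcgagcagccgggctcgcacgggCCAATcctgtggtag
FDPS: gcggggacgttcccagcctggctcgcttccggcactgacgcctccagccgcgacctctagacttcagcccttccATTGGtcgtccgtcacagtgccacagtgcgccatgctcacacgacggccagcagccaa
MVK: tgaCCAATgttcaagcctATTGGtaaaggt
The MVD stretch shows all 3 of its boxes, the MVK stretch the closest pair of its 5, and the HMGCS1 and FDPS stretches 1 box each. A sterol regulatory element was searched as TCACNCCAC, where N is any base, on both strands. It occurred in 0 of the windows of these 6 members and in 0.883% of all windows. The looser CACNCCAC, which is part of the longer motif, occurred once, in the second IDI1 window, and in 4.87% of all windows. The GC box GGGCGG was present in every window of these 6 members and in 42.6% of all windows. The E-box CACGTG was in no window of the 6 and in 6.34% of all windows. These matches describe letters in a short window and do not locate binding.

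Levels are in CPM on the TMM-adjusted library size and rest on 3995365 to 5840057 counts per library on rows with a symbol. Sparse rows are missing from the deposited table, so these totals are below full depth. The 8 liver markers that were checked were all in the table, with a summed level of 11270 to 12720 CPM in the Plasmax libraries and 20600 to 25770 CPM in the other 9. ALB, AFP, TF, TTR and HNF4A were called lower in Plasmax in all 3 comparisons and APOA1 against EMEM, SERPINA1 was called higher in all 3 (0.52 against HGDMEM, 0.48 against LGDMEM and 0.57 against EMEM), and APOB was not called. Of 6 leukocyte markers only CD68, CD14 and LYZ were listed, at a sum of 1966 to 2193 CPM in Plasmax and 2122 to 3294 CPM elsewhere. Nearly all of that sum was LYZ, since CD68 and CD14 reached at most 11.01 and 8.256 CPM in any library. Of 8 endothelial and stromal markers COL1A1 and ACTA2 were listed, at 66.73 to 93.02 CPM in Plasmax and 21.73 to 61.74 CPM elsewhere. Most of this was ACTA2, and COL1A1 reached at most 9.509 CPM. The part of these shifts in the results was not tested. LGDMEM 3 stood apart from the other LGDMEM libraries, with a chi-square of 18.2 and 23.3 per gene against them, where the other 10 pairs of replicates had 7.28 to 12.1. The labels do not say whether replicates were separate cultures, so each p-value is set against library-to-library spread that may be technical only. In such bulk RNA, less of a transcript per cell and fewer cells that hold it cannot be told apart.

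Expression of 7 of the 8 genes was far lower in Plasmax than in each of the other 3 media, and PMVK was the exception. All 7 were lower by 5.26-fold to 13.4-fold against HGDMEM, by 5.56-fold to 12.0-fold against LGDMEM and by 5.16-fold to 10.6-fold against EMEM (edgeR's quasi-likelihood test, Benjamini-Hochberg adjustment over all genes, threshold 0.05). Over all 10945 genes 26.9% were called against HGDMEM, 14.1% lower and 12.8% higher. Against LGDMEM 21.2% were called, 11.7% lower and 9.48% higher, and against EMEM 22.1%, 12.1% lower and 10% higher. In the test over the 4 media, which called 22.9% of all genes, 7 of the 8 members were called as well. The highest adjusted p among the 7 was 5.98e-07 against HGDMEM, 1.88e-06 against LGDMEM and 3.13e-06 against EMEM. The median log2 fold change of all 8 members was −2.83 against HGDMEM, −2.69 against LGDMEM and −2.72 against EMEM, beside medians over all genes of 0.01, 0.00 and 0.02. The 3 comparisons share the Plasmax libraries. Without LGDMEM 3 all 7 stayed lower against LGDMEM, with log2 fold changes of −3.81 for ACAT2 to −2.65 for FDFT1. Together the 8 genes took 0.0201% to 0.0231% of the counts of a library in Plasmax, against 0.168% to 0.182% in HGDMEM, 0.104% to 0.208% in LGDMEM and 0.129% to 0.163% in EMEM.

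ACAT2, the cytosolic thiolase that joins acetyl-CoA units to acetoacetyl-CoA, had 65.7, 43.79 and 47.96 CPM in the Plasmax libraries, against 715.9, 643.7 and 724.0 CPM in HGDMEM, 820.6, 649.5 and 415.5 CPM in LGDMEM and 563.8, 475.6 and 634.7 CPM in EMEM. The highest Plasmax library lay far below the lowest of the other 9, and among those 9 the LGDMEM libraries overlapped both other media, while the HGDMEM libraries all lay above the EMEM libraries. The log2 fold change was −3.73 against HGDMEM (SE 0.22, adjusted p = 4.26e-09) and −3.58 against LGDMEM (SE 0.22, adjusted p = 9.22e-09). Against EMEM it was −3.41 (SE 0.21, adjusted p = 2.89e-08), which ranked 15 from the bottom among all genes. In GENCODE 29 the 3′ end of ACAT2 overlaps the 3′ end of TCP1, a chaperonin subunit gene on the opposite strand, by 558 bases, and its 5′ end overlaps SOD2 by 2202 bases. Whether counting used strand is not given in the sources used here, so reads in the overlaps cannot be assigned from the table. TCP1 had 283.6, 287.4 and 291.0 CPM in Plasmax against 264.8 to 313.4 CPM in the other 9 libraries, and its log2 fold change against EMEM was −0.08 (SE 0.11, adjusted p = 0.647). SOD2, the mitochondrial superoxide dismutase, which was looked up after the values of ACAT2 were seen, rose against HGDMEM by 0.41 (adjusted p = 0.0312) and against LGDMEM by 0.51 (adjusted p = 0.0113), and had a log2 fold change of 0.31 against EMEM (adjusted p = 0.109). Neither neighbour was lower in Plasmax in the way ACAT2 was.

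HMGCS1, the cytosolic HMG-CoA synthase, had 44.49, 47.01 and 45.06 CPM in Plasmax, against 340.6, 280.9 and 305.0 CPM in HGDMEM, 418.2, 271.9 and 140.8 CPM in LGDMEM and 345.2, 241.9 and 305.7 CPM in EMEM. Its Plasmax libraries were the most alike of any member, at 45.5 ± 1.32 CPM (SD, n = 3), while the LGDMEM libraries spread widely, at 277.0 ± 139 CPM. The log2 fold change of HMGCS1 was −2.76 against HGDMEM, −2.60 against LGDMEM and −2.71 against EMEM (SE 0.27, 0.26 and 0.27). Without LGDMEM 3 the value against LGDMEM was −2.92 and without LGDMEM 1 it was −2.18. The mitochondrial isoenzymes of these first steps make ketone bodies. Of them ACAT1 had 28.22, 28.25 and 39.48 CPM in Plasmax against 36.89 to 57.53 CPM in the other 9 libraries, and it was called lower against HGDMEM alone of the 3 media (log2 fold change −0.62, adjusted p = 0.0307). Against LGDMEM and EMEM its log2 fold changes were −0.49 and −0.57 (adjusted p = 0.0972 and 0.0526), and the difference between these comparisons was not tested.

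MVK, the kinase that phosphorylates mevalonate, had 2.06, 7.01 and 2.89 CPM in Plasmax, which rest on 10, 37 and 14 counts. It had 58.7, 54.95 and 49.7 CPM in HGDMEM, 61.08, 42.46 and 31.47 CPM in LGDMEM and 38.35, 33.11 and 31.76 CPM in EMEM. Plasmax 2 stood above the other Plasmax libraries and was still far below every library of the other media. The log2 fold change was −3.75 against HGDMEM (SE 0.33), −3.47 against LGDMEM (SE 0.33) and −3.08 against EMEM (SE 0.33). Without Plasmax 2 these were −4.45, −4.17 and −3.78. MVK shares its upstream region with MMAB, a cobalamin adenosyltransferase gene read in the opposite direction, and 211 bases of their RefSeq windows are the same. MMAB had 5.77, 9.67 and 6.20 CPM in Plasmax, against 41.88 to 46.84 CPM in HGDMEM, 21.73 to 56.03 CPM in LGDMEM and 43.97 to 51.7 CPM in EMEM, with log2 fold changes of −2.60, −2.31 and −2.69, all called. Both genes of the divergent pair were thus lower in Plasmax. Their 5′ ends also overlap by 620 bases in GENCODE 29, and the reads there cannot be assigned without strand.

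PMVK, the kinase that phosphorylates phosphomevalonate in the next step, had 8.65, 7.77 and 12.6 CPM in Plasmax, against 12.75, 9.60 and 9.73 CPM in HGDMEM, 6.82, 11.4 and 9.28 CPM in LGDMEM and 9.22, 10.86 and 15.36 CPM in EMEM. All 4 media overlapped. Its log2 fold change was −0.15 against HGDMEM (95% confidence interval −0.82 to 0.53, adjusted p = 0.784), 0.07 against LGDMEM (−0.61 to 0.75, adjusted p = 0.909) and −0.29 against EMEM (−0.96 to 0.38, adjusted p = 0.569). These values rest on 27 to 73 counts per library. The intervals include a moderate fall but end well above the values of the other 7 members. The ratio of each of the other 7 genes to PMVK in the same library was lower in every Plasmax library than in any of the other 9. For FDFT1, for example, it was 4.98 to 7.76 in Plasmax and 23.4 to 63.4 elsewhere, and for MVK 0.23 to 0.902 in Plasmax and 2.07 to 8.96 elsewhere. The ratios are formed from the levels given above and are no separate evidence. Whether PMVK differed from the other members was not tested beyond the intervals.

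**Figure D1:**
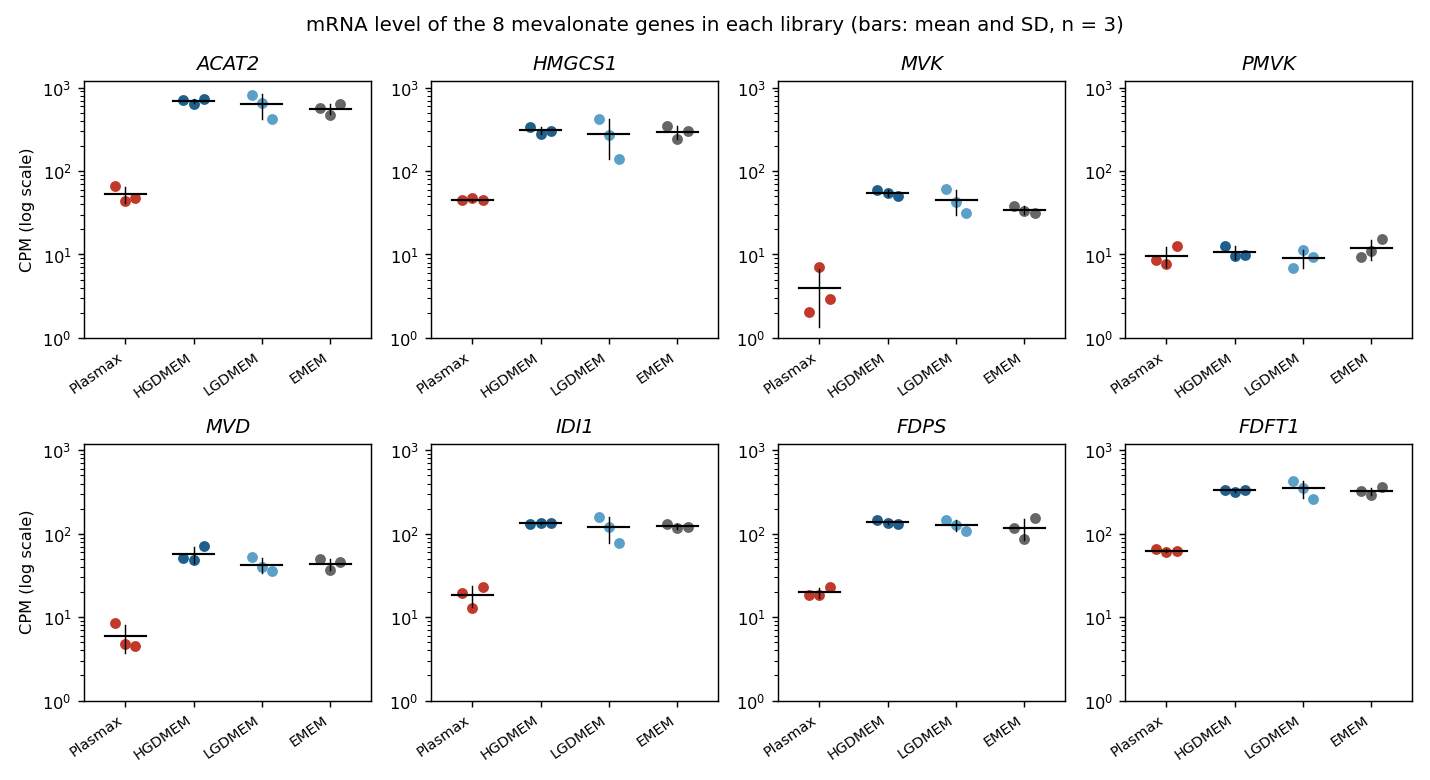
Level of each of the 8 genes in CPM on a log axis, with 1 point per library, a horizontal bar for the mean and a vertical bar for the SD of the 3 libraries of a medium. For 7 genes the Plasmax points lie below all points of HGDMEM, LGDMEM and EMEM, whereas for PMVK the 4 media overlap between 6.82 and 15.36 CPM. The share of all genes separated in this way was not counted.

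MVD, which decarboxylates diphosphomevalonate to isopentenyl diphosphate, had 8.45, 4.74 and 4.55 CPM in Plasmax, against 51.57, 47.84 and 72.12 CPM in HGDMEM, 52.5, 39.71 and 35.32 CPM in LGDMEM and 49.52, 36.31 and 45.23 CPM in EMEM. Its log2 fold change was −3.27 against HGDMEM, −2.84 against LGDMEM and −2.88 against EMEM, with an SE of 0.27 each time. The Plasmax values come from 41, 25 and 22 counts, so with MVK it is the member with the fewest reads in that medium. IDI1, the isomerase that makes dimethylallyl diphosphate, had 19.36, 12.89 and 23.15 CPM in Plasmax, against 132.0, 135.6 and 134.9 CPM in HGDMEM, 160.0, 119.9 and 77.88 CPM in LGDMEM and 132.0, 116.9 and 120.1 CPM in EMEM. Here too no Plasmax library reached the range of the others, and the log2 fold changes were −2.86, −2.69 and −2.74 (SE 0.23 each). Its paralogue IDI2 was not analysed here.

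FDPS, the synthase of farnesyl diphosphate, from which the prenyl and sterol branches part, had 18.33, 18.2 and 22.74 CPM in Plasmax, against 144.2, 136.4 and 131.6 CPM in HGDMEM, 144.6, 126.6 and 108.9 CPM in LGDMEM and 116.3, 85.62 and 152.9 CPM in EMEM. The log2 fold changes were −2.80 against HGDMEM, −2.68 against LGDMEM and −2.58 against EMEM (SE 0.20 or below each). GENCODE 29 lists 8 pseudogenes named after FDPS, so the assignment of its reads is less certain than for the other members. FDFT1, the squalene synthase that commits farnesyl diphosphate to sterols, had 65.29, 60.28 and 62.84 CPM in Plasmax, against 336.5, 316.0 and 338.4 CPM in HGDMEM, 432.1, 353.6 and 262.9 CPM in LGDMEM and 322.6, 290.0 and 359.1 CPM in EMEM. It had the smallest fall of the 7 in all 3 comparisons and also the smallest error, at −2.39 against HGDMEM, −2.48 against LGDMEM and −2.37 against EMEM (SE 0.16 each). The intervals of ACAT2, −3.86 to −2.96 against EMEM, and FDFT1, −2.70 to −2.04, did not meet, and the difference between the 2 genes was not itself tested.

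**Figure D2:**
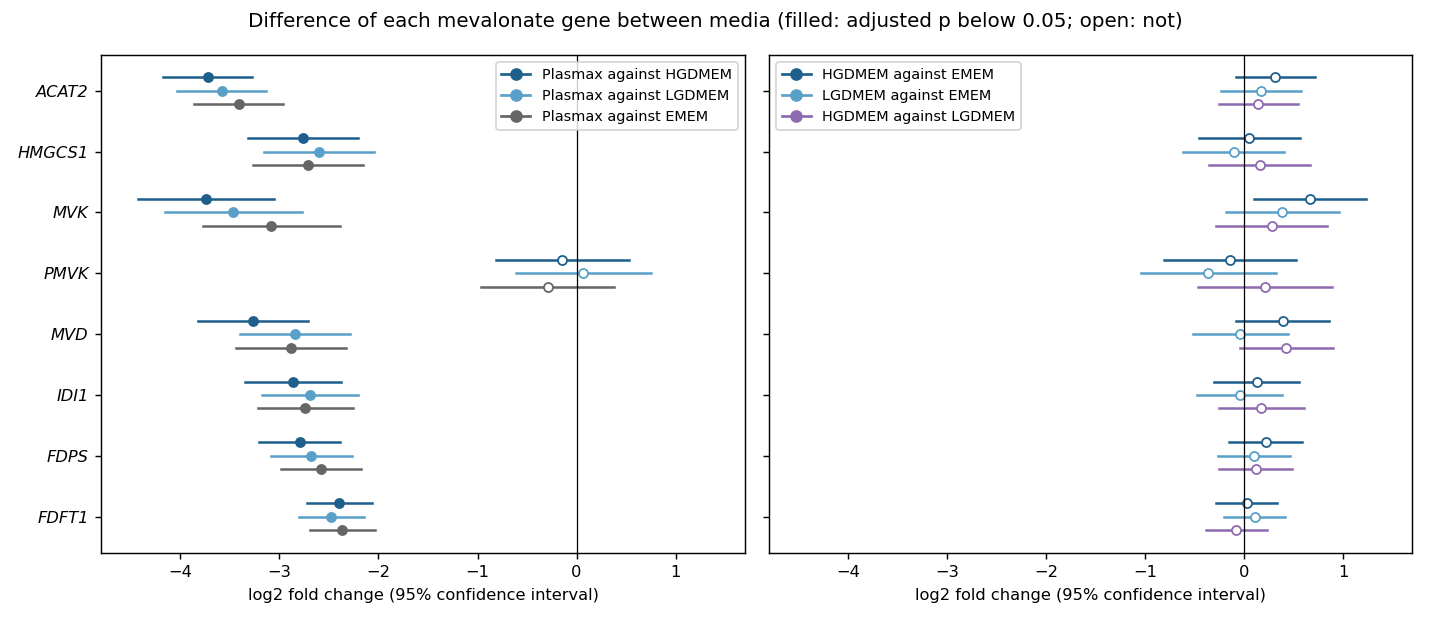
Log2 fold change of each gene with its 95% confidence interval, for Plasmax against each other medium on the left and for the other 3 pairs of media on the right, with filled points for an adjusted p below 0.05. On the left 7 genes lie between −3.75 and −2.37 and PMVK lies between −0.29 and 0.07, and on the right no point is filled.

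Among HGDMEM, LGDMEM and EMEM no member was called in any of the 3 pairs. With edgeR's quasi-likelihood test 0 of 8 were called for HGDMEM against EMEM, where 0.164% of all genes were called, 0 of 8 for LGDMEM against EMEM, where 0.0731% were, and 0 of 8 for HGDMEM against LGDMEM, where 0.064% were. DESeq2 and limma voom also called 0 in each. At an unadjusted p below 0.05 there were 1, 0 and 0 members, and the 1 was MVK in HGDMEM against EMEM. Its 3 HGDMEM libraries, at 49.7 to 58.7 CPM, lay above its 3 EMEM libraries, at 31.76 to 38.35 CPM, with a log2 fold change of 0.66 (95% confidence interval 0.10 to 1.23, unadjusted p = 0.0233, adjusted p = 0.511). For the other members of this pair the values ran from −0.15 for PMVK to 0.39 for MVD, and the interval of MVD was −0.08 to 0.86.

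HGDMEM and LGDMEM differ in glucose by their names, and there the members ran from −0.08 for FDFT1 to 0.43 for MVD in HGDMEM against LGDMEM. The interval was −0.46 to 0.89 for PMVK, the widest, and −0.39 to 0.23 for FDFT1, the narrowest. A change of 2-fold, 1 on the log2 scale, lay outside all 8 intervals. In LGDMEM against EMEM the members ran from −0.36 for PMVK to 0.39 for MVK, with 4 above and 4 below 0. By mean level HGDMEM was highest for ACAT2, HMGCS1, MVK, MVD, IDI1 and FDPS, LGDMEM for FDFT1 and EMEM for PMVK. None of these neighbours in the order differed beyond their spread by the adjusted test, apart from the step down to Plasmax for the 7 genes.

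The 7 genes also varied in the same direction within LGDMEM. LGDMEM 1 held the highest and LGDMEM 3 the lowest value of that medium for 7 of the 8 genes. The exception was PMVK, for which LGDMEM 1 was the lowest and LGDMEM 2 the highest. The share of all genes with the order of the 7 was not counted. LGDMEM 3 also stood apart from the other LGDMEM libraries over the whole table, with a chi-square of 18.2 and 23.3 per gene. The median deviation of the 8 genes from the LGDMEM mean was 0.39 in LGDMEM 1 and −0.42 in LGDMEM 3 on the log2 scale, where the median over all genes was 0.00 and 0.01. HMGCS1 spread most, at 0.73 in LGDMEM 1 and −0.84 in LGDMEM 3. In EMEM all 8 genes were below their medium's mean in EMEM 2, with a median of −0.19 beside 0.01 over all genes. The share of all genes below that mean was not counted. In HGDMEM the medians of the 8 stayed between −0.09 and 0.06. SREBF2, the gene of SREBP-2, had 48.71 CPM in LGDMEM 1 and 73.13 CPM in LGDMEM 3, in the opposite direction to the 7 genes. The gradient was not particular to them, since SQLE had 278.4 CPM in LGDMEM 1 and 163.9 CPM in LGDMEM 3, LSS 86.07 and 46.19 CPM, and MMAB 56.03 and 21.73 CPM.

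**Figure D3:**
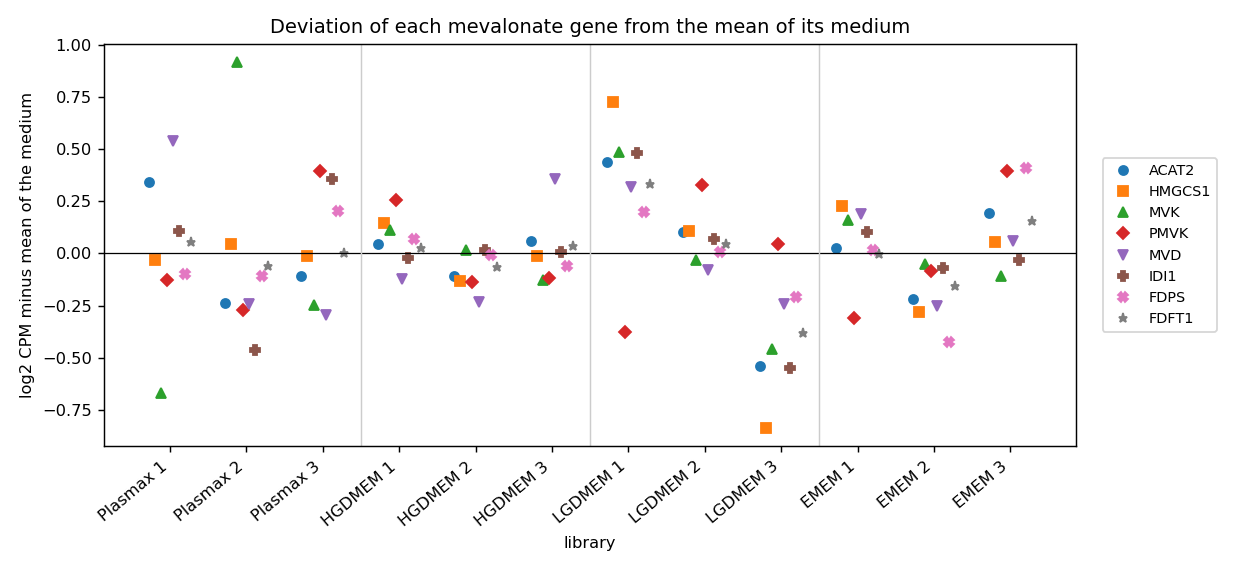
Deviation of each gene's log2 CPM from the mean of its medium, for the 12 libraries, with a symbol per gene. In LGDMEM 7 genes lie above 0 in LGDMEM 1 and below 0 in LGDMEM 3, with medians over the 8 genes of 0.39 and −0.42, while the genes of HGDMEM libraries stay closer to 0. The share of all genes that do so was not counted.

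The genes around this arm are described by lists that were also chosen with earlier results of these data known. From squalene to cholesterol 12 of 14 listed symbols were in the table, and 11, 10 and 11 were called lower in Plasmax against HGDMEM, LGDMEM and EMEM, with none higher. Over all genes 14.1%, 11.7% and 12.1% were called lower. The median log2 fold changes of the list were −1.95, −1.83 and −1.74, between 0 and the medians of the mevalonate genes. Against EMEM the log2 fold change was −3.07 for the sterol C4 demethylation enzyme MSMO1, −2.78 for the squalene epoxidase SQLE, −2.35 for the reductase DHCR7 and −1.85 for the desaturase SC5D. HSD17B7 was not called against EMEM (−0.32, SE 0.58) or LGDMEM (−0.98, SE 0.57).

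Of 20 measured genes of sterol sensing and uptake 8 were called lower and 1 higher in Plasmax in each of the 3 comparisons. Over all genes 14.1% were called lower and 12.8% higher against HGDMEM, 11.7% and 9.48% against LGDMEM, and 12.1% and 10% against EMEM. The medians of the list were −0.17 against HGDMEM, −0.25 against LGDMEM and −0.22 against EMEM. TMEM97, the sigma-2 receptor gene, had a log2 fold change of −2.05 against EMEM. SREBF2 had 26.16, 20.47 and 26.67 CPM in Plasmax, against 47.51 to 59.64 CPM in HGDMEM, 48.71 to 73.13 CPM in LGDMEM and 35.92 to 49.01 CPM in EMEM. Its log2 fold changes were −1.13, −1.28 and −0.82 against these media, all called and all nearer to 0 than those of the 7 mevalonate genes. SREBF1, whose product mainly serves fatty acid synthesis, was at −0.13, −0.12 and −0.16 and was not called (adjusted p = 0.728, 0.761 and 0.69). The retention factor INSIG2 and the escort SCAP had log2 fold changes of −0.06 and 0.24 against EMEM and were not called. The gene called higher was the ubiquitin ligase RNF145, at 0.54 against EMEM (adjusted p = 0.0227).

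The branches that leave the pathway at farnesyl and geranylgeranyl diphosphate lead to ubiquinone, dolichol and prenylated proteins. Counted in both directions, their genes were called about as often as all genes, but most of the calls were lower. Of 20 measured genes 5 were lower and 1 higher against HGDMEM, where 26.9% of all genes were called, 3 lower against LGDMEM, where 21.2% were, and 5 lower against EMEM, where 22.1% were. Called lower in these comparisons were 14.1%, 11.7% and 12.1% of all genes, and a difference from these shares was not tested. The medians of the branch genes were −0.10, −0.09 and −0.12. Against EMEM the log2 fold change was −1.01 for COQ2, which prenylates the ubiquinone ring, −0.91 for the dolichyl diphosphatase DOLPP1, −0.72 for the geranylgeranyl diphosphate synthase GGPS1 and −0.54 for the prenylcysteine methyltransferase ICMT. The gene called higher was FNTA, a prenyltransferase subunit, at 0.58 against HGDMEM. Upstream, among 8 genes that supply acetyl-CoA, 7 were lower against HGDMEM, 6 against LGDMEM and 4 against EMEM, with none higher and medians of −0.62, −0.59 and −0.48. Of all genes 14.1%, 11.7% and 12.1% were called lower in these comparisons. Against EMEM the log2 fold change was −1.88 for the mitochondrial citrate carrier SLC25A1, −1.34 for the cytosolic acetyl-CoA synthetase ACSS2, −0.82 for the ATP citrate lyase ACLY and −0.55 for the pyruvate dehydrogenase subunit PDHB.

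Targets and receptors of LXR, a sterol-activated factor that drives cholesterol export, were not called in either direction against EMEM (0 of 8 measured). NR1H3 was called lower against HGDMEM, and ABCA1 and NR1H3 against LGDMEM, while the medians of the list were 0.38, 0.62 and 0.26 against HGDMEM, LGDMEM and EMEM. These medians are uncertain, since MYLIP, ABCG8 and NR1H2 rest on at most 30 counts in any library. Their SEs against EMEM were 0.83, 0.73 and 0.61. Of 8 measured thiolases and ketone body genes 3 were lower and 0 higher against HGDMEM, 3 lower and 1 higher against LGDMEM and 2 lower and 1 higher against EMEM. Over all genes 26.9%, 21.2% and 22.1% were called in these comparisons, and 14.1%, 11.7% and 12.1% were called lower. Whether the list differed from these shares was not tested. Called against EMEM were the thiolases ACAA2, at −0.98, and ACAA1, at −0.65, and HADHB, a subunit of the trifunctional protein, at 0.43. No gene of these lists was called among HGDMEM, LGDMEM and EMEM.

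**Figure D4:**
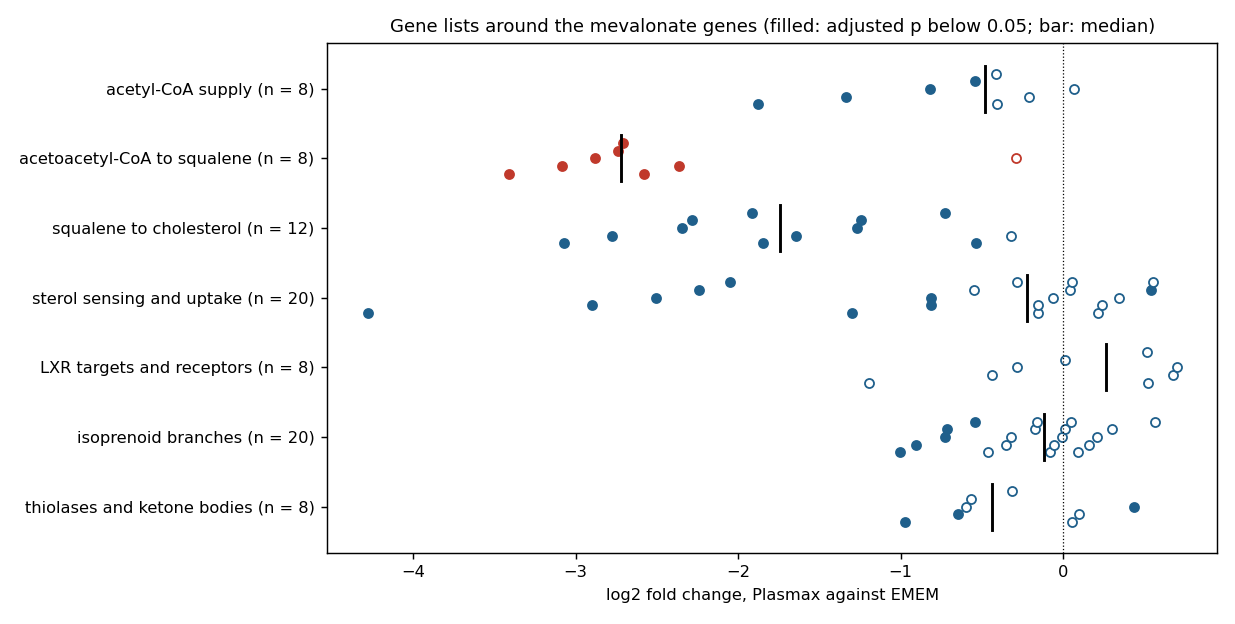
Log2 fold change in Plasmax against EMEM for each measured gene of 7 lists, with filled points for an adjusted p below 0.05 and a bar at the list's median. The mevalonate genes (acetoacetyl-CoA to squalene) have a median of −2.72 with PMVK apart at −0.29, the squalene to cholesterol list one of −1.74, and the isoprenoid branches one of −0.12.

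Among the genes outside the 8 with the most similar profile were FADS1, DHCR7, SQLE, LSS and CDT1. Likeness was measured over the 12 libraries as the root-mean-square difference, in log2 CPM, between a gene and the median of the 8 members after each was centred on its own mean, among the 7843 genes that averaged 10 CPM or more. The difference was 0.21 for FADS1, a fatty acid desaturase, 0.23 for DHCR7, 0.26 for SQLE, 0.27 for the lanosterol synthase LSS and 0.28 for CDT1, a DNA replication licensing factor. For comparison the median over those 7843 genes was 1.19. Among the members themselves FDPS and FDFT1 were closest to the shared profile, at 0.15 each, then IDI1 at 0.19, HMGCS1 at 0.21 and MVD at 0.30. ACAT2 was at 0.42 and MVK at 0.53, and PMVK was farthest at 1.16, close to the median of those 7843 genes. The members formed that profile, so their distances are not a like measure to those of genes outside the 8. FADS1 had 45.31, 43.03 and 34.93 CPM in Plasmax against 157.6 to 239.6 CPM in the other 9 libraries, and CDT1 had 15.04, 13.84 and 20.46 CPM in Plasmax against 50.04 to 109.5 CPM in the others.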

How the data were processed

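RNA purified on columns was made into QuantSeq 3′ mRNA libraries, per the labels' protocols. The submitters' processing notes name, without role or order, the builds hg19 and GRCh37, the aligner STAR (2.7.5b), the counter featureCounts (1.6.3), limma (3.40.6), and for trimming and quality cutadapt (1.16) and FastQC (0.72). The authors deposited raw whole-number counts per gene symbol in 11546 rows. Of these, 601 had no symbol (2.92% to 3.71% of a library's counts) and were left out. Every other row reached at least 2.59 CPM in 3 libraries, so a filter of unstated rule preceded the deposit.

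All 12 libraries entered 1 edgeR fit (version 4.0.16, R 4.3.3, TMM scaling, quasi-likelihood test) with medium as the term, no block and no further filter. Adjustment was by Benjamini-Hochberg over 10945 genes at 0.05. The SE was derived from each log2 fold change and its F statistic, and the 95% intervals from that SE. Log2 CPM uses a prior count of 2. Alternatives were RLE and library-size scaling, a minimum mean of 5 CPM, DESeq2 1.42.0, limma 3.58.1 (voom), fits to the media compared only, a replicate block and leaving out each library of the media compared. Overlaps came from GENCODE 29 and sequences from RefSeq.

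The members and lists were chosen with earlier results of these data known. Named genes are the 8 members, their neighbours and paralogues, sterol regulators, up to 4 genes of each list by adjusted p against EMEM, and the 6 nearest profiles. SOD2, HSD17B7, the liver, leukocyte and stromal markers, SCAP, INSIG2, RNF145, FNTA, ABCA1, NR1H3, MYLIP, ABCG8 and NR1H2 were named after their values were seen. INSIG1 and IDI2 were not analysed here, and some genes that these rules name are not reported here.

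The media share replicate numbers. Deviations of libraries with 1 number were correlated between media over the 4366 genes with a mean log2 CPM above 5. The values were 0.186, 0.11 and 0.124 for HGDMEM against EMEM and 0.246, 0.165 and 0.21 for HGDMEM against LGDMEM, all above 0.1. The main fit had no block, so its tests of both pairs leave any pairing aside, and the block was run as an alternative. The other comparisons did not pass 0.1 for all 3 numbers, and over all genes none did.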

Additional observations from a re-analysis of the deposited data

How the results depend on the processing

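Under every alternative run, ACAT2, HMGCS1, MVK, MVD, IDI1, FDPS and FDFT1 remained lower in Plasmax and past the threshold (39 values each over the 3 comparisons, highest adjusted p 0.000115, for MVK), and PMVK was called in 0 of 39. With the replicate block ACAT2 was at −3.43 against EMEM, the members called stayed at 7 in each Plasmax comparison and 0 in the others, and no other call of a member changed. Among HGDMEM, LGDMEM and EMEM 0 of 311 alternative values were called, with a lowest adjusted p of 0.134.

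Values that were not called changed sign when 1 library was left out, and the cause was not tested. Over these leave-one-out fits PMVK ran from −0.17 to 0.26 for Plasmax against LGDMEM and from −0.38 to 4e-04 for Plasmax against HGDMEM. For HGDMEM against EMEM the ranges were −0.070 to 0.17 for HMGCS1, −0.29 to 0.090 for PMVK and −0.041 to 0.11 for FDFT1. For LGDMEM against EMEM they were −0.067 to 0.40 for ACAT2, −0.53 to 0.22 for HMGCS1, −0.22 to 0.080 for MVD, −0.31 to 0.19 for IDI1, −0.085 to 0.33 for FDPS and −0.071 to 0.28 for FDFT1. For HGDMEM against LGDMEM they were −0.080 to 0.38 for ACAT2, −0.16 to 0.58 for HMGCS1, −0.058 to 0.44 for IDI1 and −0.25 to 0.10 for FDFT1.

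Depth limits MVK and MVD in Plasmax, with 10 to 41 counts per library, and PMVK throughout. Fits to the media compared only gave no value for the test over the 4 media, and the adjusted p that DESeq2 left empty for PMVK in HGDMEM against LGDMEM was not counted.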
